A study of Caenorhabditis elegans with 12 samples.

Results

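The cytochrome P450 (cyp) genes of Caenorhabditis elegans were followed across 12 RNA sequencing libraries of whole worms. Members were the protein-coding genes whose symbol is cyp- followed by a number and which reached at least 10 counts in 3 or more libraries. Of 74 protein-coding cyp genes 67 met this minimum, out of 15648 protein-coding genes that did so. They belong to 15 families and 24 subfamilies, the family being the number and the subfamily the number with its letter. All 67 were also kept by the expression filter of the test. Below the minimum were cyp-13A4, cyp-25A6, cyp-33B1, cyp-33C11, cyp-33C12, cyp-35B2 and cyp-35B3. Just inside it, cyp-33C1, cyp-13A11 and cyp-34A10 reached 10 counts in 5 libraries each. Just outside, cyp-13A4, cyp-33B1 and cyp-35B2 did so in 2 libraries each.

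The libraries form 4 groups of 3, all from hermaphrodites of 5 days. CF1038 worms, which carry the deletion allele daf-16(mu86), were on the empty vector L4440 or labelled as bcat-1 RNAi. TU3311 worms, which carry a sid-1 transgene that allows RNAi in neurons and have no daf-16 allele in their label, were on L4440 or labelled as daf-7 RNAi. DAF-16 is the FOXO transcription factor downstream of the insulin receptor, bcat-1 encodes a branched-chain aminotransferase, and daf-7 a TGF-beta ligand. Nothing in the labels ties the 3 libraries of a group to separate cultures, so the p-values speak only of variation among these libraries, possibly technical. Strain and library number cannot be told apart, since libraries 1 to 6 are all CF1038 and libraries 7 to 12 all TU3311. The prefix of the run names in the titles differs between the same sets, so it cannot be told apart from strain either. Vector and RNAi libraries take turns in the numbering, so that each RNAi library follows the vector library of the same replicate.

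Library totals ran from 30130249 to 45343624 counts. Levels are CPM, counts set to a common library size after TMM scaling, which corrects for library composition. daf-16 was at 77.4 to 87.5 CPM in the CF1038 vector libraries and at 185 to 210 CPM in the TU3311 vector libraries (edgeR adjusted p = 0.00581), and the count over the whole gene includes any exon that the deletion leaves. The genes targeted by feeding were not lower in the libraries named for them. bcat-1 was at 131 to 151 CPM on vector and 166 to 222 CPM in the bcat-1 RNAi-labelled libraries (adjusted p = 0.212). daf-7 was at 6.21 to 12.1 CPM on vector and 31.4 to 137 CPM in the daf-7 RNAi-labelled libraries (adjusted p = 0.0556). Every direction given for a feeding below is therefore that of libraries labelled with it. All 10 intestinal, all 6 body wall muscle, all 8 neuronal, all 7 germline and all 8 oocyte and eggshell markers had at least 10 counts in every library. Of 5 pharynx markers 4 did so, of 8 epidermal markers 5 and of 6 embryo markers 4. Of 8 sperm markers 1 did so and 2 were at 0 in at least 1 library.

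P450 enzymes hold a heme group through a cysteine and insert 1 atom of oxygen into lipids, steroids or foreign compounds, with electrons from a P450 reductase. Worms have an expanded set of these genes, many in tandem arrays and many active in the intestine, where they take part in the response to xenobiotics. Other members make signalling lipids, or serve in the eggshell. Because worms cannot make heme, the enzymes depend on heme taken up from food.

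Per kilobase of exon, the eggshell genes and cyp-13A5 led the family. Averaged over 12 libraries, cyp-31A2 was at 76.3 CPM per kb, cyp-13A5 at 67.5, cyp-31A3 at 53.5 and cyp-31A5 at 48.5. cyp-31A2 and cyp-31A3 act with the reductase EMB-8 in making the lipid layer of the eggshell. Next came cyp-44A1, which encodes a mitochondrial P450, at 35.7 CPM per kb, then cyp-14A5 at 28 and cyp-33C8 at 26.4. cyp-36A1, which acts downstream of the oxygen-sensing enzyme EGL-9 and HIF-1, was at 23.1 CPM per kb. The range was wide, since 16 members were at 10 CPM per kb or more, 29 from 1 to under 10, and 22 under 1, with a median of 2.51. At the low end of the xenobiotic group, cyp-35A1 was at 0.262 and cyp-35A4 at 0.418 CPM per kb, beside 14.5 for cyp-35A2 and 11.1 for cyp-35C1.

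On empty vector, the gene with the highest group mean differed between the strains. In the CF1038 vector group cyp-31A2 was highest, at 110 ± 7.73 CPM per kb (SD, n = 3), and cyp-13A5 stood at 33.9 ± 9.62. In the TU3311 vector group cyp-13A5 was highest, at 97.2 ± 36.4 CPM per kb, and cyp-31A2 stood at 56.7 ± 18.9, so their means lie within the summed SDs of each other. The gap was widest in library 7, with 10300 counts for cyp-13A5 and 2585 for cyp-31A2. Library 9 had 4897 and 4716, and library 11 had 5649 and 4357. In libraries 8, 10 and 12, labelled daf-7 RNAi, the counts were 9647 and 2607, 5032 and 4402, and 2999 and 3459. cyp-31A2, cyp-13A5, cyp-31A3 and cyp-31A5 together made up 50.4% to 52.3% of the summed level per kb of all members in the CF1038 vector libraries. They made up 39.6% to 49.4% in the bcat-1 RNAi-labelled libraries, 26.7% to 40.7% on vector in TU3311 and 26.8% to 41.8% in the daf-7 RNAi-labelled libraries. Other subfamilies were led by single genes at lower levels: cyp-34A9 at 19.3 CPM per kb, cyp-37A1 at 16.8, cyp-29A2 at 16.1, cyp-25A2 at 14.9, cyp-33A1 at 14.5 and cyp-43A1 at 14.3. Subfamilies 23A, 33D and 14A held members under 1 CPM per kb, among them cyp-23A1 at 0.430, cyp-33D1 at 0.594 and cyp-14A4 at 0.265.

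**Figure D1:**
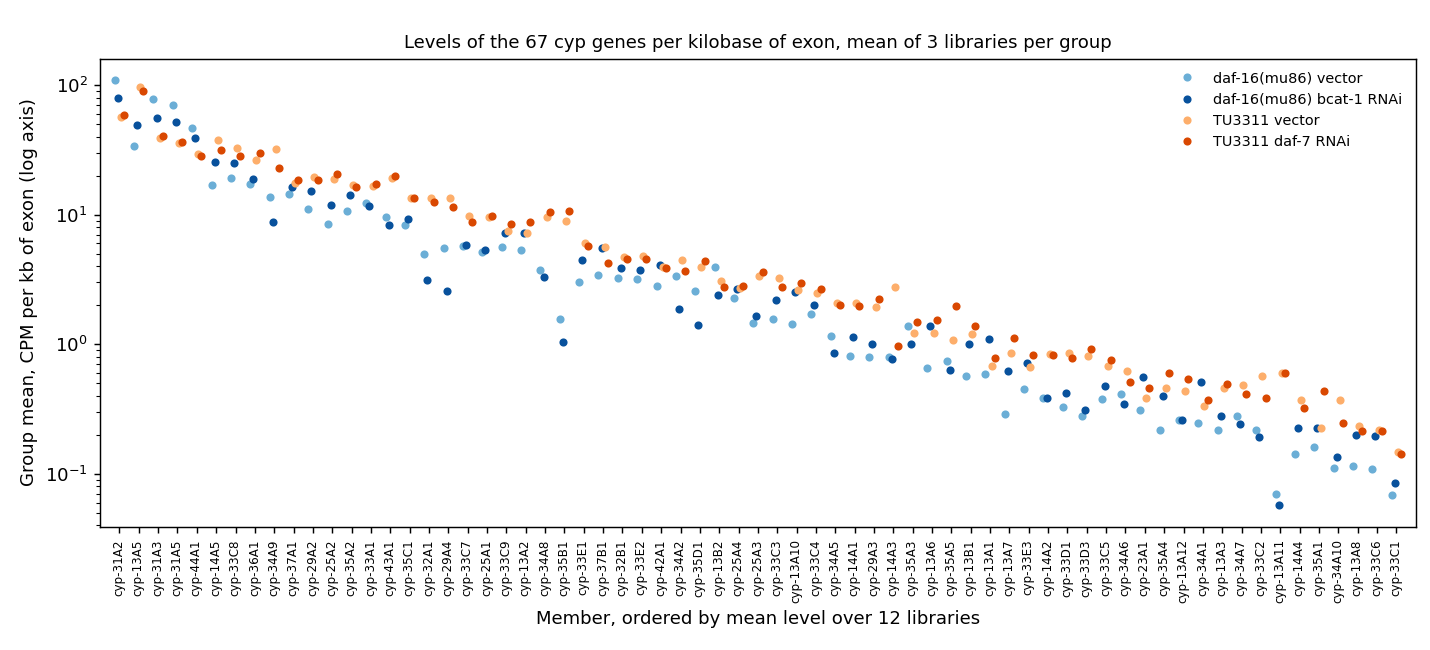
Group mean level of each of the 67 cyp genes in CPM per kilobase of exon (vertical log axis), members ordered by their mean over 12 libraries; each point is the mean of the 3 libraries of a group. cyp-31A2 at 110 CPM per kb leads in the CF1038 vector group and cyp-13A5 at 97.2 leads in the TU3311 vector group.

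Several members cannot be read alone. The 3 31A genes, and the 13A, 33C and 34A arrays, are close paralogs, and how reads shared between copies were counted is not given in the sources used here. The exons of cyp-31A5, cyp-33E3, cyp-36A1, cyp-37A1, cyp-37B1 and cyp-43A1 overlap a gene on the other strand that also had counts, by 147 bases at most (cyp-36A1 with figo-1). cyp-44A1 overlaps npp-24 on its own strand by 24 bases. The strand setting of the counting is not given, so reads in those stretches cannot be told apart.

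The first library of each TU3311 group stood apart. Libraries 7 (vector) and 8 (labelled daf-7 RNAi) were both above the other 4 TU3311 libraries for 45 of 67 members, against 39.0% of all genes tested, and both below them for 5 members, against 37.3%. Library 7 exceeded the higher of the other TU3311 vector libraries by 3.40 times for cyp-13A11, by 3.01 times for cyp-35D1 and by 2.76 times for cyp-32A1. For the 31A genes these were the lowest libraries of the series, with summed levels of 121 and 128 CPM where the other TU3311 libraries had 233 to 262. Summed germline markers were at 1352 and 1351 CPM in these 2 libraries and at 2798 to 3205 CPM in the other 4 of TU3311. Counts of calls are also given without both, as are the tests of many single genes. Overlap counts, subfamily medians and, further on, sums of markers and of the 31A genes are given with both included.

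**Figure D2:**
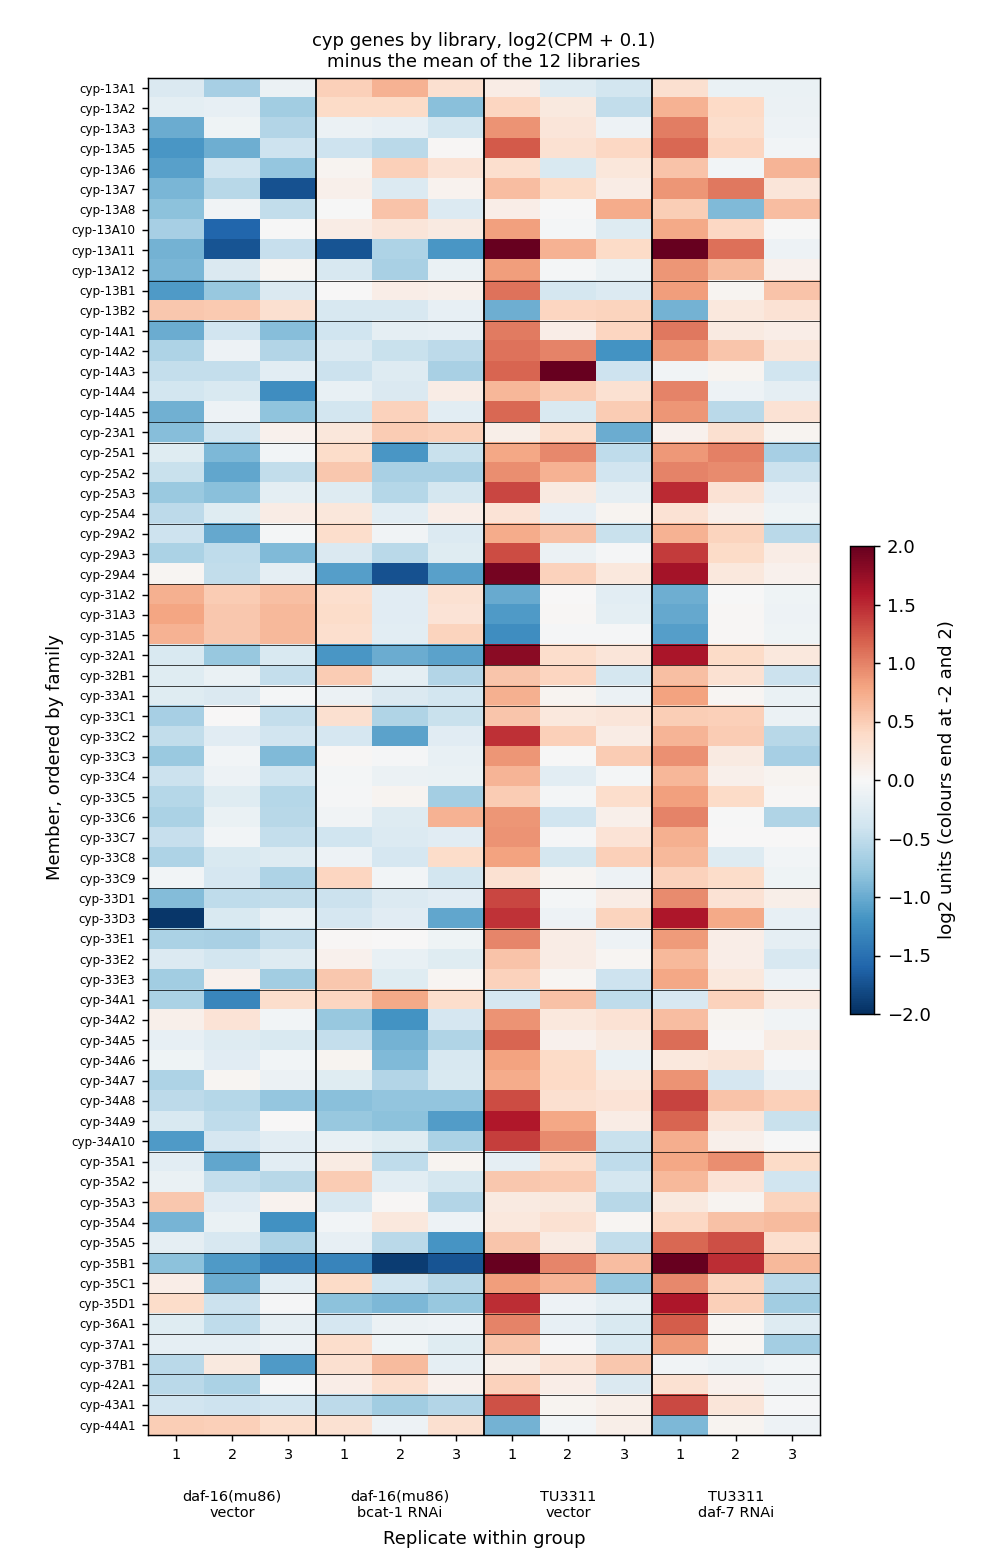
Each cyp gene (rows, by family) in each library (columns, 3 per group), as log2(CPM + 0.1) minus the gene's mean over the 12 libraries; colours end at -2 and 2. The first column of each TU3311 group is red for most genes and blue for cyp-31A2, cyp-31A3, cyp-31A5, cyp-13B2 and cyp-44A1.

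On empty vector, 7 cyp genes were lower in CF1038 than in TU3311 and none higher (edgeR, Benjamini-Hochberg adjusted p under 0.05), against 6.5% of all genes tested called lower and 0.132% called higher. They were cyp-35B1, cyp-13A5, cyp-34A8, cyp-13A7, cyp-14A1, cyp-14A3 and cyp-13A11. At an unadjusted p under 0.05, 34 members were lower and 4 higher, against 28.8% and 15.3% of all genes. Of the 67 members, 61 had a log2 change below 0, against 61.8% of all genes, and 6 one above it, against 38.2%. Among the 61, cyp-13A11, cyp-33C1 and cyp-34A10 would have missed the count minimum without TU3311 libraries. For these a difference between the strains was a condition of being listed. The median log2 change was -0.83 for the members and -0.38 for all genes. Scaling moved these medians together, to -0.61 and -0.17 with RLE factors and to -1.17 and -0.71 with upper-quartile factors. Without libraries 7 and 8 they were -0.53 and -0.19, and without library 7 alone -0.54 and -0.21. The vector libraries of the strains did not overlap for 28 members that were lower and 4 that were higher in CF1038, against 30.7% and 25.8% of all genes.

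cyp-35B1 had the smallest p. It is also named dod-13, one of the genes activated when DAF-16 is active, and lies on chromosome V from 3939032 to 3941237 (build WBcel235, as for all positions here). Its level was 3.08, 2.47 and 2.14 CPM in the 3 CF1038 vector libraries and 24.8, 10.9 and 8.51 CPM in the TU3311 vector libraries. Every CF1038 library was below every TU3311 library, those labelled with RNAi included, at 2.15, 1.41 and 1.59 CPM in CF1038 and 28.6, 15.5 and 8.67 CPM in TU3311. On vector the gene was 5.75-fold lower in CF1038 (log2 change -2.52 ± 0.47 SE, adjusted p = 0.014). Without libraries 7 and 8 the log2 change was -1.92 (adjusted p = 0.00271), and the call was lost when any 1 of the 3 CF1038 vector libraries was left out. cyp-34A9, also called dod-16, did not pass. It was at 22.6, 19.6 and 28 CPM against 85.2, 47.9 and 30.96 CPM, groups that do not overlap (log2 change -1.23 ± 0.40, adjusted p = 0.0682; without libraries 7 and 8, -0.75 and 0.0398). cyp-35B2 and cyp-35B3, the other members of the 35B subfamily, were under the count minimum.

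The 13A subfamily gave 3 of the 7 calls. cyp-13A5 (chromosome II, 9798277 to 9800362) was at 44.2, 50.5 and 74.6 CPM in CF1038 vector libraries and at 232, 122 and 131 CPM in those of TU3311, with no overlap. It was 2.87-fold lower (log2 change -1.52 ± 0.34, adjusted p = 0.0282). cyp-13A7, a gene known for its induction by rifampicin, was at 0.500, 0.676 and 0.238 CPM against 1.64, 1.38 and 1.16 CPM (log2 change -1.54 ± 0.38, adjusted p = 0.0364). cyp-13A11 (chromosome III, 13021006 to 13024045) rests on few reads, with 3, 1 and 6 counts in the CF1038 vector libraries and 87, 23 and 19 in those of TU3311. Its log2 change was -3.14 ± 0.87 (adjusted p = 0.0479), and it met the count minimum only through TU3311 libraries, so a difference between the strains was a condition of its being listed. The adjacent cyp-13A12, which acts in the behavioural response to oxygen, was at 0.269, 0.468 and 0.611 CPM against 1.15, 0.575 and 0.535 CPM and did not pass (adjusted p = 0.167; without libraries 7 and 8, 0.56). All 10 members of the subfamily had a log2 change below 0 under each of the 4 scalings, with a median of -0.95.

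The remaining calls were cyp-14A1, cyp-14A3 and cyp-34A8. cyp-14A1 (chromosome X, 13265041 to 13267355) was at 1.00, 1.59 and 1.12 CPM in CF1038 vector libraries and at 4.41, 2.30 and 2.84 CPM in those of TU3311, without overlap (log2 change -1.36 ± 0.34, adjusted p = 0.0398). cyp-14A3 was at 1.15, 1.14 and 1.39 CPM against 3.80, 7.70 and 1.21 CPM, so the groups overlap and the call rests on libraries 7 and 9 (log2 change -1.78 ± 0.48, adjusted p = 0.0449). It was lost without library 7 and without library 9. All 5 members of the 14A subfamily were below 0 under each scaling, with a median log2 change of -1.36. cyp-34A8 (chromosome V, 3964797 to 3967823) was at 6.35, 6.13 and 5.30 CPM against 22.7, 11.5 and 11.1 CPM, without overlap (log2 change -1.35 ± 0.32, adjusted p = 0.0314).

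All 7 calls were kept without libraries 7 and 8, where 13 members were lower and 3 higher, against 15.7% and 15.8% of all genes. The log2 changes were then -1.17 for cyp-13A5 (adjusted p = 0.014), -1.40 for cyp-13A7 (0.0238), -2.18 for cyp-13A11 (0.0388), -1.04 for cyp-14A1 (0.015), -1.84 for cyp-14A3 (0.0437) and -0.92 for cyp-34A8 (0.0054). In that fit the call of cyp-14A3 rests on library 9, since library 11 lies among the CF1038 vector values. The 6 added were cyp-14A4, cyp-29A3, cyp-32A1, cyp-33E1, cyp-34A9 and cyp-43A1. All 7 were also kept by DESeq2, which called 9 lower and 4 higher, against 8.66% and 15.9% of the genes it tested. With RLE factors cyp-35B1 alone remained, where 1.46% of all genes were called lower. With library 1, 3 or 5 of the CF1038 vector group left out no member passed, and of all genes 0.305%, 0.516% and 0.158% were called lower. Without library 7 only cyp-35B1 passed, where 1.43% of all genes were called lower. Without library 9 or 11, 9 and 6 members were lower, against 7.23% and 3.99% of all genes. With library totals 15 were lower, or 22.4% of members against 17.2% of all genes, and with the 6 compared libraries alone 3 of 64, against 3.32%. Upper-quartile factors gave 8 lower and 2 higher, against 10.9% and 0.487%, and no filter on low counts 6 and 3, against 3.8% and 0.38%.

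**Figure D3:**
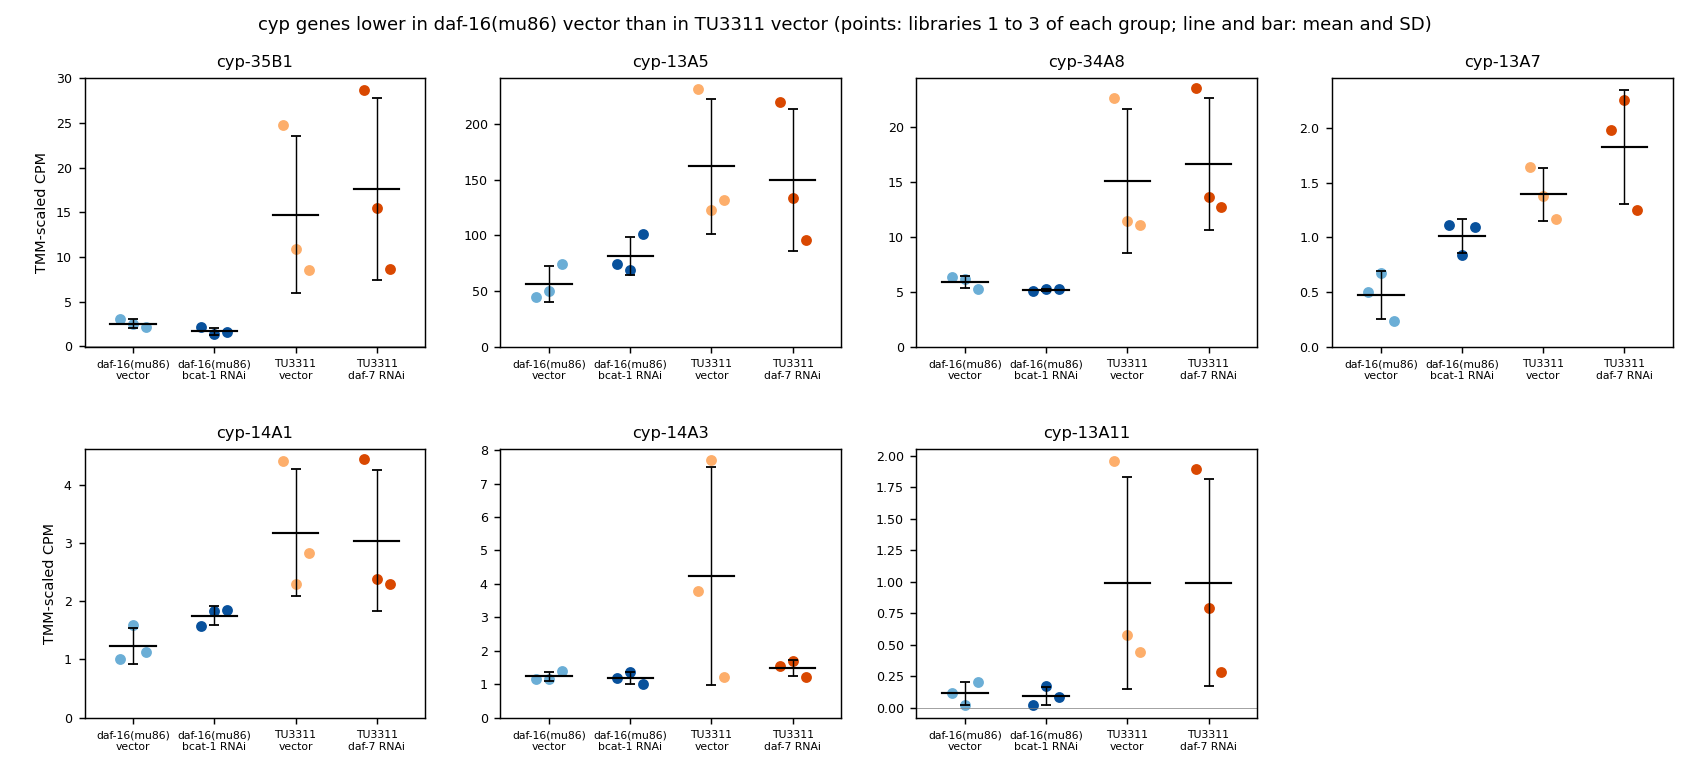
The 7 cyp genes called lower in CF1038 daf-16(mu86) than in TU3311 on empty vector, in TMM-scaled CPM (vertical axes start at 0 or just below it); points are the libraries of each group, the line is their mean and the bar their SD. Each CF1038 library lies below each TU3311 library for cyp-35B1 and cyp-34A8, while for cyp-14A3 the third TU3311 vector library, at 1.21 CPM, lies among the CF1038 values.

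The xenobiotic and fat genes of the 35 family outside 35B showed no call between the strains. cyp-35A2 was at 20.04, 15.8 and 15.01 CPM in CF1038 and 32.0, 31.5 and 17.2 CPM in TU3311 (log2 change -0.67 ± 0.33, adjusted p = 0.125; without libraries 7 and 8, -0.52 and 0.244). cyp-35A4 did not overlap, at 0.269, 0.546 and 0.204 CPM against 0.720, 0.775 and 0.628 CPM (log2 change -1.02 ± 0.37, adjusted p = 0.0794; without libraries 7 and 8, -0.99 and 0.0638). The subfamily was divided in sign, with 4 of 5 members below 0 and cyp-35A3 above it by 0.19, and with upper-quartile factors or library totals all 5 were below 0. cyp-35C1 had a log2 change of -0.70 (adjusted p = 0.216; without libraries 7 and 8, -0.42 and 0.56) and cyp-35D1, which is linked to the metabolism of thiabendazole, one of -0.62 (adjusted p = 0.333), which without libraries 7 and 8 was 0.15.

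Among genes of signalling lipids, cyp-29A3 and cyp-33E2 take part in making eicosanoids from eicosapentaenoic acid. cyp-29A3 was at 1.42, 1.56 and 1.19 CPM in the CF1038 vector libraries and 5.76, 2.08 and 2.23 CPM in those of TU3311 (log2 change -1.27 ± 0.42, adjusted p = 0.0707; without libraries 7 and 8, -0.62 and 0.0487). cyp-33E2 was at 5.69, 5.30 and 5.74 CPM against 10.3, 7.65 and 7.07 CPM (log2 change -0.58 ± 0.27, adjusted p = 0.114; without libraries 7 and 8, -0.40 and 0.114). Neither overlapped between the strains. All 9 members of 33C, all 8 of 34A and all 4 of 25A were below 0 under each of the 4 scalings, with medians of -0.83, -0.81 and -1.03. Of these, cyp-33C1 and cyp-34A10 met the count minimum only through TU3311 libraries, so their signs add no support. cyp-33D3, one of the largest changes without overlap, was at 0.115, 0.572 and 0.645 CPM against 2.16, 0.675 and 1.02 CPM and did not pass (adjusted p = 0.0919; without libraries 7 and 8, 0.202).

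The 4 members that were higher in CF1038 without overlap were the 31A genes and cyp-44A1. cyp-31A2 was at 192, 167 and 178 CPM in the CF1038 vector libraries and at 58.1, 118 and 101 CPM in those of TU3311. This is a 1.94-fold difference that did not pass (log2 change 0.95 ± 0.30, adjusted p = 0.0651). cyp-31A3 and cyp-31A5 had log2 changes of 1.02 (adjusted p = 0.0649) and 0.96 (adjusted p = 0.0789). Without libraries 7 and 8 all 3 passed, at log2 changes of 0.71, 0.75 and 0.66 and adjusted p from 0.015 to 0.0192, and DESeq2 also called them. cyp-44A1 was at 74.7, 73.6 and 67.4 CPM against 27.4, 50.8 and 57.6 CPM (log2 change 0.67 ± 0.30, adjusted p = 0.105), with an adjusted p of 0.0448 by DESeq2 and 0.0517 without libraries 7 and 8 (log2 change 0.41).

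Germline markers, and most but not all markers of oocytes and eggshell, differed between the strains in the same direction as the 31A genes. Summed over the 3 genes, the level was 374 to 431 CPM in the CF1038 vector libraries and 121 to 260 CPM in those of TU3311. The 7 germline markers summed to 3977 to 4475 against 1352 to 2947 CPM in the same libraries, and each of the 7 was higher in CF1038 without overlap. Of the 8 oocyte and eggshell markers 6 were higher without overlap, and perm-2 and perm-4 overlapped. Library 7 was lowest for the 31A genes and highest for these 2 markers, with perm-2 at 3829 CPM where the CF1038 vector libraries had 1419 to 1682 CPM. The sum of all 8 was 11965 to 13563 CPM in CF1038 and 9259 to 10682 CPM in TU3311, where its highest value was in library 7. In libraries of whole worms, fewer cells of a type and less RNA per cell cannot be told apart. The part of germline and oocytes in the 31A result was not tested. The sum of the 10 intestinal markers overlapped between the strains, at 1812 to 2217 CPM in CF1038 and 1654 to 2587 CPM in TU3311 on vector. One by one, pept-1 was higher and ges-1 lower in CF1038 without overlap, and 8 overlapped. All 6 body wall muscle markers were lower in CF1038 without overlap, summing to 667 to 735 against 1157 to 2051 CPM. The pharynx sum was 72.6 to 102 against 121 to 206 CPM, with 3 of 5 markers lower without overlap and 2 overlapping. Of the 8 neuronal markers 6 were lower without overlap and 2 overlapped. Their sums overlap, at 341 to 369 against 364 to 490 CPM. Of the 8 epidermal markers 3 were lower and 1 higher in CF1038 without overlap, and 4 overlapped. Of the 8 sperm markers, most with few counts, 5 were lower and 3 overlapped. Of the 6 embryo markers 1 was higher and 5 overlapped. The part of these tissues in the lower cyp levels was not tested.

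In CF1038, no cyp gene passed between bcat-1 RNAi-labelled libraries and vector libraries with all 4 groups in 1 fit (edgeR), against 4.18% of all genes tested called higher and 0.144% called lower. At an unadjusted p under 0.05, 5 members were higher and 2 lower, against 18.6% and 3.17% of all genes. DESeq2 called cyp-34A2 alone, as lower, against 1.52% of the genes it tested. Of the 67 members 43 had a log2 change above 0 and 24 below it, against 58.5% and 41.5% of all genes. The median log2 change was 0.23 for the members and 0.16 for all genes. With RLE factors the medians were 0.04 and -0.04. The 6 libraries did not overlap for 12 members that were higher and 13 that were lower, against 29.5% and 25.1% of all genes.

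With neighbouring libraries paired as a block, 13 members were called higher and 10 lower, against 25.7% and 18.5% of all genes. That the neighbours are pairs was read from the values, since their deviations from the group means correlated in each of the 6 pairs, and the labels do not state it. With only the 6 CF1038 libraries in the fit, 7 of 62 members tested were higher and 8 lower, against 24.0% and 16.5%. Without libraries 7 and 8 the counts were 6 and 7 of 66, against 20.9% and 14.8%. By each of these 3 fits, cyp-13A1, cyp-13A6, cyp-13A7, cyp-13B1, cyp-33E1 and cyp-42A1 were higher, and cyp-13B2, cyp-29A4, cyp-31A2, cyp-31A3, cyp-32A1, cyp-34A2 and cyp-35D1 were lower. The shares of cyp genes called are below those of all genes in each of the 3 fits.

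Of the 10 13A genes 5 were called higher with the block, against 25.7% of all genes. In the fit of all 4 groups without the block none was, and cyp-13A7 had the largest log2 change of all members. cyp-13A1, cyp-13A6 and cyp-13A7 were also called with the 6 CF1038 libraries alone and without libraries 7 and 8. cyp-13A6 (chromosome II, 9800758 to 9802821) was at 0.885, 1.48 and 1.12 CPM on vector and at 2.07, 2.82 and 2.45 CPM in the bcat-1 RNAi-labelled libraries, and each RNAi library was above each vector library. Its log2 change was 1.06 ± 0.31 (adjusted p = 0.0698), and with the block 1.08 ± 0.18 (adjusted p = 0.00201). cyp-13A7 was at 0.500, 0.676 and 0.238 CPM on vector and at 1.11, 0.834 and 1.10 CPM in the labelled libraries, again without overlap. Its log2 change was 1.09 ± 0.38 (adjusted p = 0.118; with the block 0.024). cyp-13A1 was at 1.08, 0.806 and 1.22 CPM against 1.90, 2.24 and 1.70 CPM (log2 change 0.91 ± 0.29, adjusted p = 0.0929; with the block 0.0106). cyp-13A5, the most abundant of them, was at 44.2, 50.5 and 74.6 CPM on vector and at 74.3, 68.5 and 101 CPM in the labelled libraries. It was higher in each of the 3 neighbouring pairs, and passed only with the block (log2 change 0.53 ± 0.34, adjusted p = 0.369; with the block 0.54 ± 0.12 and 0.00661). Of the 10 members 8 were above 0, and 9 with upper-quartile factors or library totals. All 5 pharynx markers were higher without overlap in the bcat-1 RNAi-labelled libraries, with sums of 144 to 210 CPM against 72.6 to 102 CPM on vector. Of the 8 neuronal markers 6 were higher, with sums of 401 to 415 CPM against 341 to 369 CPM. Body wall muscle markers overlapped in sum, at 693 to 1067 against 667 to 735 CPM, and 3 of the 6 were higher without overlap. Of the 10 intestinal markers 3 were higher (elt-2, ges-1 and pept-1) and 1 lower (act-5) without overlap, and 6 overlapped. The part of these tissues in the cyp values was not tested.

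The 31A genes pointed the other way. cyp-31A2 was at 192, 167 and 178 CPM on vector and at 148, 99.9 and 144 CPM in the bcat-1 RNAi-labelled libraries, without overlap (log2 change -0.46 ± 0.30, adjusted p = 0.379; with the block -0.48 ± 0.10 and 0.00531). cyp-31A3 and cyp-31A5 did not overlap either, with log2 changes of -0.50 and -0.41, and with the block adjusted p of 0.00388 and 0.0135. All 3 were below 0 under each scaling. All 7 germline markers were lower without overlap, summing to 2499 to 3112 CPM against 3977 to 4475 CPM on vector. So were 6 of the 8 oocyte and eggshell markers, perm-2 and perm-4 overlapping, with a sum of 7940 to 9767 CPM against 11965 to 13563 CPM. In the TU3311 vector libraries the oocyte and eggshell sum was 9259 to 10682 CPM, which overlaps that of the labelled libraries. The germline sum there, 1352 to 2947 CPM, also overlapped. The 31A sum was 121 to 260 CPM there and 222 to 330 CPM in the labelled libraries, overlapping as well. The part of these tissues in the 31A values was not tested.

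In the 34A subfamily 2 of 8 members were called lower with the block, against 18.5% of all genes. In the edgeR fit of all 4 groups without the block none was. cyp-34A2 and cyp-34A9 were also called with the 6 CF1038 libraries alone, and cyp-34A2 without libraries 7 and 8. cyp-34A2 (chromosome V, 15288777 to 15291095) was at 5.92, 6.68 and 5.30 CPM on vector and at 3.21, 2.36 and 4.36 CPM in the labelled libraries, without overlap (log2 change -0.85 ± 0.30, adjusted p = 0.125; with the block 0.00882; by DESeq2 0.0151). cyp-34A9 was at 22.6, 19.6 and 28 CPM on vector and at 16.4, 15.8 and 12.9 CPM in the labelled libraries (log2 change -0.64 ± 0.40, adjusted p = 0.355; with the block 0.00903). Summed over the 8 members, the level was 38.9 ± 3.42 CPM on vector and 26.9 ± 1.43 CPM in the labelled libraries (SD, n = 3). Of the 8, 6 had a log2 change below 0, and 5 with library totals. cyp-34A1 went the other way, with 8, 6 and 21 counts on vector and 30, 34 and 33 in the labelled libraries. Its log2 change of 1.07 ± 0.51 was the second largest of all members and did not pass (adjusted p = 0.242; with the block 0.0585).

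Outside these subfamilies, cyp-29A4 (chromosome V, 9654755 to 9658120) had the most negative value. It was at 11.0, 7.56 and 9.41 CPM on vector and at 4.93, 3.14 and 5.01 CPM in the bcat-1 RNAi-labelled libraries, without overlap. That is 2.14-fold lower (log2 change -1.10 ± 0.48, adjusted p = 0.211; with the block -1.11 ± 0.13 and 0.000481). cyp-35D1 was at 5.19, 2.96 and 3.94 CPM against 2.23, 2.10 and 2.32 CPM (log2 change -0.86 ± 0.54, adjusted p = 0.359; with the block 0.0148). cyp-13B2 was at 7.50, 7.38 and 6.42 CPM against 4.10, 4.08 and 4.58 CPM (log2 change -0.74 ± 0.38, adjusted p = 0.274; with the block 0.00413), while cyp-13B1 of the same subfamily had a log2 change of 0.83 (with the block adjusted p = 0.031). cyp-32A1 was at 9.19, 6.68 and 9.14 CPM against 5.01, 5.64 and 5.33 CPM (with the block adjusted p = 0.00798).

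The 35 family did not move as one in the bcat-1 RNAi-labelled libraries. cyp-35A4 was at 0.269, 0.546 and 0.204 CPM on vector and at 0.582, 0.719 and 0.559 CPM in the labelled libraries (log2 change 0.83 ± 0.37, adjusted p = 0.215; with the block 0.0409). cyp-35A2 passed only with the block, at a log2 change of 0.37 ± 0.13 (adjusted p = 0.0383). cyp-35B1 was lower in each of the 3 pairs, and its log2 change with the block was -0.58 ± 0.17 (adjusted p = 0.019), although the groups overlap. cyp-35A3 and cyp-35A5 had log2 changes of -0.46 and -0.22 and did not pass with or without the block. Among other well expressed members, cyp-36A1 had a log2 change of 0.13 (adjusted p = 0.847), cyp-37A1 one of 0.19 (adjusted p = 0.744) and cyp-33A1 one of -0.07 (adjusted p = 0.888). cyp-42A1 was at 4.50, 4.21 and 6.59 CPM on vector and at 7.26, 8.31 and 7.00 CPM in the labelled libraries (log2 change 0.56 ± 0.27, adjusted p = 0.237; with the block 0.0261). cyp-37B1 was higher in each of the 3 pairs, at 5.39, 8.94 and 3.53 CPM against 9.79, 12.3 and 6.88 CPM (log2 change 0.69 ± 0.32, adjusted p = 0.228; with the block 0.0045).

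**Figure D4:**
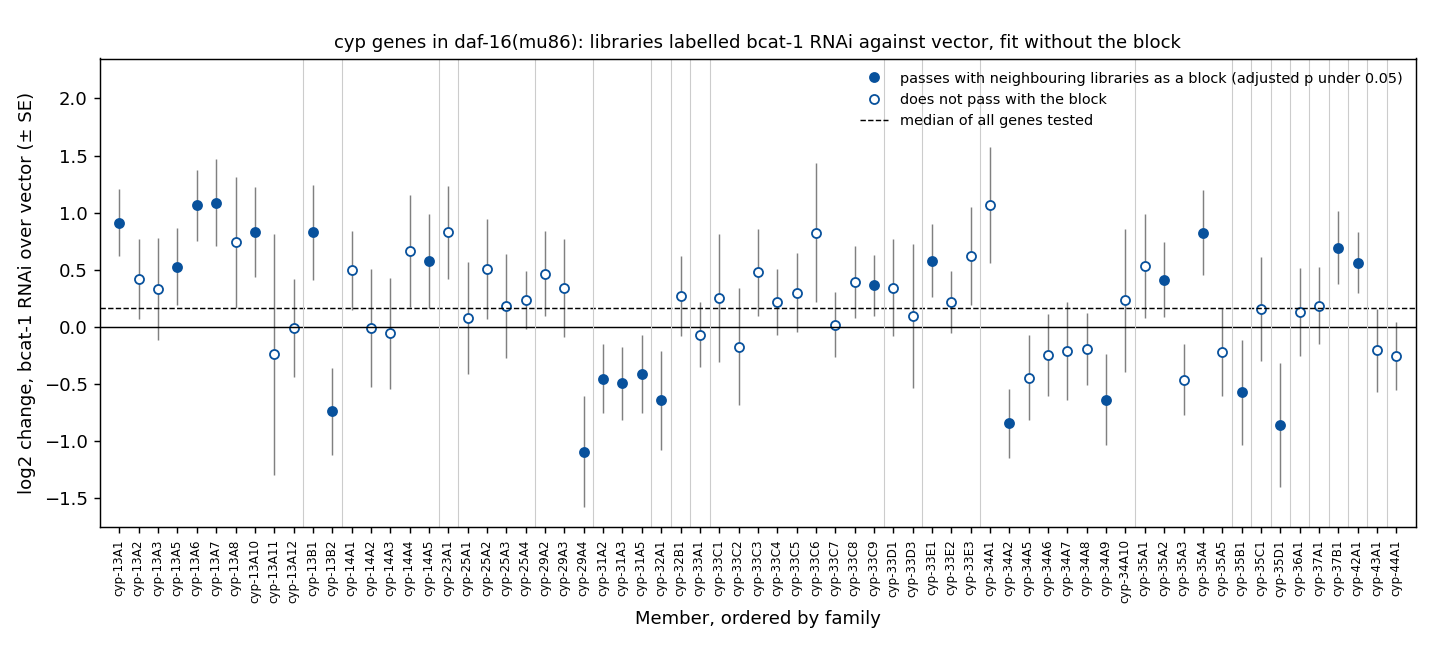
log2 change (vertical axis, bar ± SE) of each cyp gene between bcat-1 RNAi-labelled libraries and vector libraries in CF1038, from the fit without the block; filled points pass an adjusted p of 0.05 with neighbouring libraries as a block, open points do not, and the dashed line is the median of all genes tested at 0.16. Most 13A genes lie above the line, and the 31A genes and cyp-29A4 below 0.

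Members were also read by position, as groups with at most 20 kb between neighbours, of which 5 hold 4 or more members. Between the strains the members of all 5 groups were below 0, as were 61 of the 67 members. For bcat-1 the members shared a sign in 3 groups, with RLE factors in the chromosome II group alone, and those of the group on chromosome X were divided 2 to 2. For daf-7 they shared a sign in 2 groups and were divided 5 to 2, 3 to 2 and 3 to 5 in the others. The largest, with 8 members on chromosome V from 3936326 to 3972991, holds cyp-35A5, cyp-35B1 and 6 of the 34A genes. All 8 were lower in CF1038 than in TU3311 on vector, with a median log2 change of -1.03, or -0.67 without libraries 7 and 8. For cyp-34A10, which met the count minimum only through TU3311 libraries, this was a condition of being listed. In the bcat-1 RNAi-labelled libraries 7 of 8 were lower (median -0.23), and 6 of 8 with library totals. The group of 7 13A genes on chromosome II from 9779181 to 9807569 was lower in CF1038 in all 7 members, under each of the 4 scalings. The median was -0.995, or -0.75 without libraries 7 and 8. All 7 were higher in the bcat-1 RNAi-labelled libraries, also under each scaling (median 0.74). These groups were picked after their values were seen, and neighbours that are paralogs may share reads.

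In TU3311, no cyp gene passed between daf-7 RNAi-labelled libraries and vector libraries, with edgeR under each fit or with DESeq2, and of all 16618 genes tested 0.0% passed in either direction in the fit of all 4 groups. At an unadjusted p under 0.05, 2 members were higher and 1 lower, against 0.205% and 0.259% of all genes. The median log2 change was 0.02 for the members and 0.01 for all genes. Leaving out 1 of the libraries that stood apart moved it: the member median was 0.30 without library 7 and -0.29 without library 8, while that of all genes was 0.00 in each case, and without both it was 0.02. Without both no member passed either, where 0.0% of all genes were called higher and 0.00605% lower. The 2 higher were both 35A genes. cyp-35A5 was at 2.52, 1.90 and 1.16 CPM on vector and at 3.83, 4.25 and 2.14 CPM in the labelled libraries (log2 change 0.87 ± 0.37, adjusted p = 1). cyp-35A1 was at 0.315, 0.500 and 0.233 CPM against 0.707, 0.796 and 0.512 CPM, without overlap (log2 change 0.95 ± 0.42, adjusted p = 1). cyp-35A4 did not overlap either, at 0.720, 0.775 and 0.628 CPM against 0.844, 0.955 and 0.992 CPM (log2 change 0.39 ± 0.34).

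The lower one was cyp-14A3, at 3.80, 7.70 and 1.21 CPM on vector and at 1.55, 1.70 and 1.22 CPM in the labelled libraries, which overlap (log2 change -1.50 ± 0.47, adjusted p = 1). cyp-37B1 was at 8.48, 9.60 and 11.4 CPM on vector and at 7.46, 7.19 and 7.55 CPM in the labelled libraries, the only member lower without overlap (log2 change -0.41 ± 0.32). cyp-34A9 was lower in each of the 3 pairs, at 85.2, 47.9 and 30.96 CPM against 62.8, 33.1 and 20.4 CPM (log2 change -0.49 ± 0.39). cyp-13A6 and cyp-13A7 had log2 changes of 0.33 and 0.39, and cyp-33C2 and cyp-34A10 of -0.56 and -0.59, all with an adjusted p of 1. Without libraries 7 and 8 the log2 changes were 1.06 for cyp-35A5, 0.84 for cyp-35A1, -1.61 for cyp-14A3 and -0.53 for cyp-37B1, each again with an adjusted p of 1. Libraries without overlap numbered 2 higher and 1 lower, against 0.650% and 0.644% of all genes.

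The responses to the labelled feedings did not differ for any member in the fit of all 4 groups (edgeR), against 0.102% of all genes called with a more positive and 0.00602% with a more negative value for bcat-1. At an unadjusted p under 0.05 there was 1 member with a more positive value, cyp-37B1, against 11.0% of all genes, and none with a more negative one, against 1.29%. Its difference was 1.10 ± 0.45 (adjusted p = 0.342; without libraries 7 and 8, 1.23 and 0.106). In that fit no member passed, where 7.65% and 5.59% of all genes were called. With the block 5 members were more positive for bcat-1, against 15% of all genes, and 6 more negative, against 11.2%. The 5 were cyp-13A5, cyp-13A6, cyp-14A5, cyp-33E1 and cyp-37B1. For cyp-37B1 the difference was 1.15 ± 0.21 (adjusted p = 0.00829), and for cyp-14A5 it was 0.83 ± 0.13 (adjusted p = 0.00517). The 6 were cyp-29A4, cyp-31A2, cyp-31A3, cyp-35A5, cyp-35B1 and cyp-35D1. For cyp-35A5 the difference was -1.13 ± 0.29 (adjusted p = 0.0219), and for cyp-29A4 it was -0.90 ± 0.17 (adjusted p = 0.00944). Strain and feeding cannot be told apart in this comparison, as each feeding was used in 1 strain.

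Genes that supply or regulate P450 enzymes were followed beside them. The list holds 28 genes, all found and 27 tested, for reductase and cytochrome b5, heme transport, epoxide hydrolases and regulators. In the bcat-1 RNAi-labelled libraries 4 of the 27 were called higher and none lower, where 4.18% and 0.144% of all genes were. With the block 10 were higher and 6 lower, where 25.7% and 18.5% of all genes were. Of the 4, 3 are heme-responsive genes. hrg-1 encodes a heme transporter of the intestine, and was at 26.7, 27.3 and 22.8 CPM on vector and at 72.3, 62.9 and 39.8 CPM in the labelled libraries (log2 change 1.19 ± 0.24, adjusted p = 0.0159). hrg-4, a transporter that brings heme in from the gut lumen, was at 4.19, 4.24 and 4.21 CPM against 14.4, 12.9 and 7.00 CPM (log2 change 1.44 ± 0.30, adjusted p = 0.0194). hrg-3, a secreted protein that carries maternal heme to other tissues and embryos, was at 0.154, 0.156 and 0.170 CPM against 3.42, 3.77 and 1.03 CPM. None of these 3 overlapped between the groups. The log2 change of hrg-3 was 4.07 ± 0.55 (adjusted p = 0.00315), and it passed in all 15 other fits. Its vector levels were low, so the size of this change rests on few reads there.

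The other heme genes were less clear. hrg-2 was at 0.769, 0.702 and 0.510 CPM on vector and at 2.05, 2.39 and 0.731 CPM in the labelled libraries and passed only in some fits (adjusted p = 0.0817; with the block 0.0112). hrg-6 had a log2 change of 0.80 (adjusted p = 0.103; with the block 0.0193), and the heme exporter gene mrp-5 one of 0.38 (adjusted p = 0.348). hrg-5 was not tested, at 0.0679 to 0.258 CPM in CF1038. The fourth call was nhr-114, a nuclear hormone receptor gene, at 9.19, 9.07 and 7.64 CPM on vector and 16.5, 18.7 and 13.9 CPM in the labelled libraries (log2 change 0.92 ± 0.22, adjusted p = 0.0306). Between the strains nhr-114 was called lower in CF1038, with 28.5, 21.9 and 23.3 CPM in TU3311 on vector (log2 change -1.51 ± 0.22, adjusted p = 0.00353), and no other gene of the list was in the fit of all libraries. Without libraries 7 and 8, 2 were called higher (emb-8 and nhr-86) and 4 lower (nhr-114, cytb-5.1, ceeh-1 and daf-12), where 15.8% and 15.7% of all genes were. DESeq2 called 3 higher (emb-8, nhr-86 and egl-9) and nhr-114 lower, where 15.9% and 8.66% of the genes it tested were. No gene of the list passed for daf-7.

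The electron donors did not pass. emb-8, the P450 reductase gene, was at 233, 216 and 231 CPM on vector and at 204, 162 and 181 CPM in the bcat-1 RNAi-labelled libraries (log2 change -0.31 ± 0.19, adjusted p = 0.335; with the block 0.0144). cytb-5.1, a cytochrome b5 gene, was at 52.9, 54.6 and 55.8 CPM against 98.3, 89.4 and 72.2 CPM, without overlap (log2 change 0.67 ± 0.20, adjusted p = 0.0796; with the block 0.00369). daf-9, the P450 of steroid hormone synthesis whose symbol keeps it outside the members, was at 0.500, 1.09 and 1.26 CPM against 1.04, 1.55 and 0.795 CPM (adjusted p = 0.728). nhr-46, which acts with cyp-36A1, and nhr-176, which acts with cyp-35D1, had log2 changes of -0.28 and 0.39 (adjusted p = 0.382 and 0.495). For hrg-3 the response to bcat-1 exceeded that to daf-7 by 4.13 ± 0.75 (adjusted p = 0.059; with the block 0.00496).

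**Figure D5:**
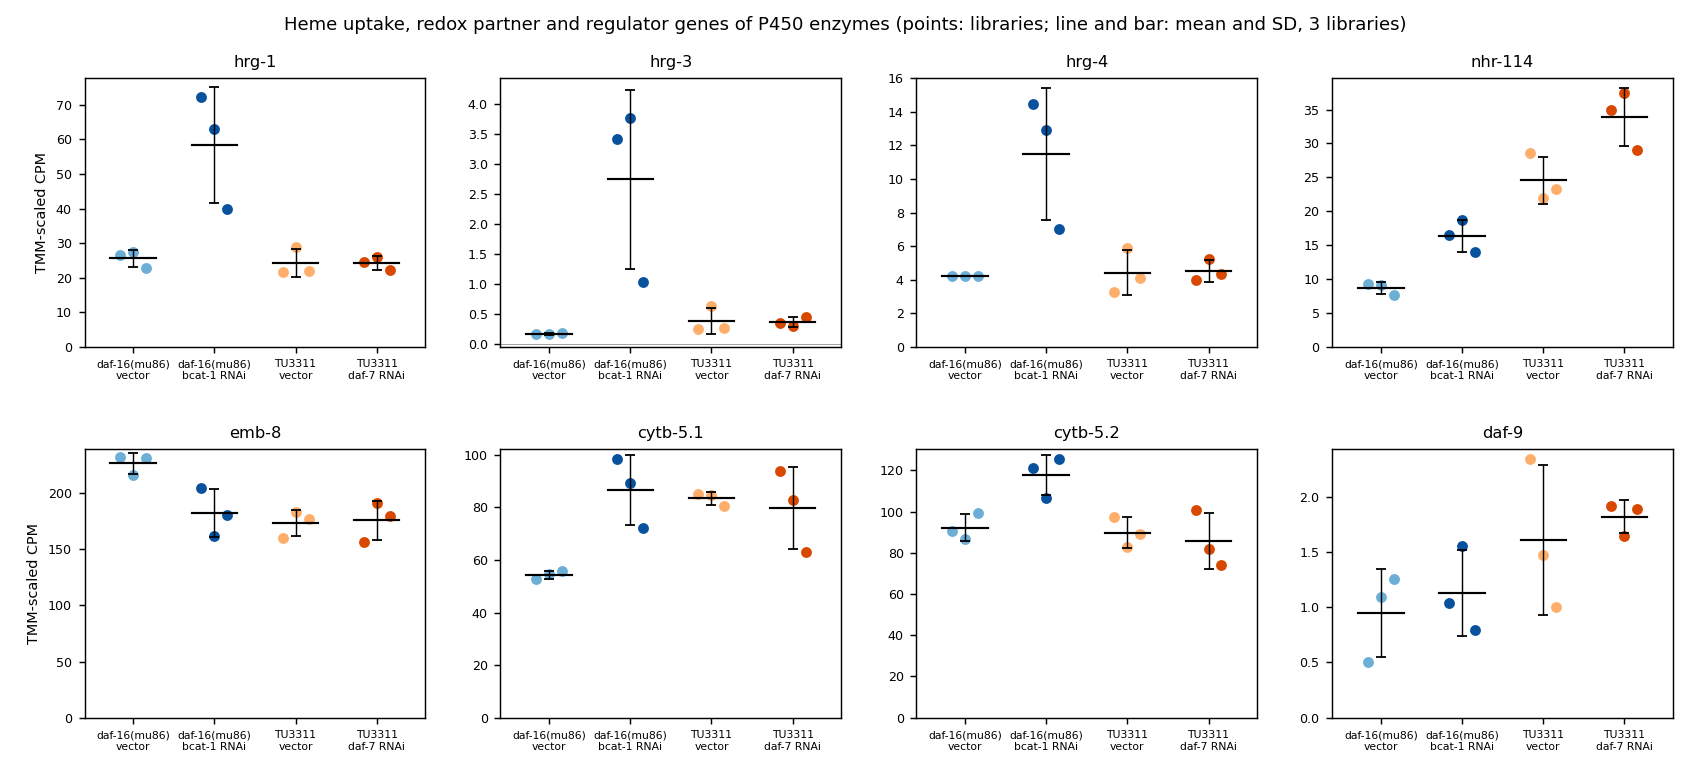
TMM-scaled CPM (vertical axes, starting at 0 or just below it) of 4 genes of heme transport and regulation called in the bcat-1 RNAi-labelled libraries (upper row) and of emb-8, cytb-5.1, cytb-5.2 and daf-9 (lower row); points are libraries, the line their mean and the bar their SD (n = 3). The upper genes are highest in the bcat-1 RNAi-labelled libraries, apart from nhr-114, which is higher in TU3311.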

How the data were processed

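RNA of whole worms was sequenced in 12 libraries, 3 in each of 4 groups taken from the labels. Strain and feeding were read from the source and perturbation labels; for libraries 1 to 6 the run names in the title and in the description carry different prefixes with the same library number, a mismatch that the labels do not resolve. The deposited values used here are raw counts per gene, which the authors made with bcl2fastq 1.8.4, STAR 2.4.1d and featureCounts 1.4.6-p4 on build WBcel235, per the submitters' processing notes; the strand setting is not given in the sources used here. Library totals were 30130249 to 45343624 counts. Of 46748 gene rows 46449 were found in the Ensembl annotation of WBcel235, which gave symbols, positions and exon lengths.

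All 4 groups entered 1 quasi-likelihood fit (edgeR 4.0.16, limma 3.58.1, R 4.3.3) with TMM factors, edgeR's filter on low counts by group, robust dispersion and 8 residual degrees of freedom. p-values were adjusted by Benjamini-Hochberg over all 16618 genes tested, and a gene was called at an adjusted p under 0.05. A prior count of 2 was used only for the log2 CPM behind the correlations of neighbouring libraries, not for the fitted log2 changes. Where counts are low, a fitted log2 change rests on few reads. The SE of a log2 change is its size divided by the root of the F statistic. The procedure was tested on simulated data. The alternatives were other scalings, no filter, dispersion without robust fitting, the 6 compared libraries alone, no libraries 7 and 8, DESeq2 1.42.0, single libraries left out and neighbouring libraries as a block.

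The block pairs libraries 1 and 2, 3 and 4 and so on to 11 and 12, whose deviations from their group means correlated at 0.398, 0.284, 0.158, 0.892, 0.777 and 0.504. The labels do not name these as pairs. The block gives no value for the strain comparison.

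The members, the gene lists and the tests were chosen with earlier results of these data known. Named genes were those called, otherwise the 5 with the smallest p in each direction, the leading gene of each subfamily, the members with a known role, and the 5 largest changes without overlap; members beyond these were named after their values were seen.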

Additional observations from a re-analysis of the deposited data

How the results depend on the processing

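The strain and bcat-1 counts depended on the settings. The shares of all genes called under the same settings stand beside these counts in the results. Lower in CF1038 on vector, 7 members were called, and 1 with RLE factors, 15 with library totals, 3 with the 6 compared libraries alone, 13 without libraries 7 and 8, and 0 to 9 with 1 library left out (9 without library 9, 0 without any 1 of the CF1038 vector libraries). Higher, 0 were called, and 2 with upper-quartile factors, 3 without the filter on low counts, 3 without libraries 7 and 8 and 4 by DESeq2. For bcat-1, 0 were called in either direction. With the replicate block, from pairs read off the values, 13 were higher and 10 lower; with the 6 libraries alone 7 and 8; without libraries 7 and 8, 6 and 7; by DESeq2, 1 lower. For the difference between the responses the replicate block gave 5 with a more positive and 6 with a more negative value, against 0. For daf-7 the count was 0 under every alternative run, the block included.

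Over 38 log2 changes of named genes, 537 values under an alternative kept their direction and side of the threshold, 31 passed where the first fit did not, 44 no longer passed, and none changed sign past the threshold. Of the summed levels by subfamily and group, 86 moved by less than 1 SD with another scaling and 10 by more. Apart from the alternatives that use fewer libraries or genes by construction, the cause was not tested. Members with few reads, such as cyp-13A11, are limited by depth.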
